A study of Mus musculus with 15 samples.

Results

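The 38 genes described here are genes of monocytes and macrophages, taken by gene symbol from a list of names and followed through 4 tables of RNA sequencing values from leukemic mouse bone marrow that together hold 20723 genes. The list was chosen with earlier results of these data known. All 38 had a row in each table. A gene was tested in a table where its value reached at least 10 in 3 or more libraries, which 36 of the 38 did in the untreated tables (all but Fcgr1 and Marco) and all 38 did in the tables with temozolomide. The marrow came from C57BL/6 mice that carried leukemias driven by MLL-AF9, a fusion oncogene brought by a retrovirus, marked with GFP, into lineage-depleted marrow cells of donors that differed at the Gfi1 locus. KD donors (GFI1 KD/KD) expressed human GFI1 at 10 to 20% of its level, 36N donors (GFI1 36N/36N) expressed the 36N variant of human GFI1, and 36S donors (GFI1 KI/KI) expressed human GFI1 from the mouse locus. Every group therefore shared the human gene, the MLL-AF9 retrovirus and passage through irradiated recipients (7 and 3 Gy for the first transplantation, 3 Gy for the later ones) up to the quaternary mice whose total marrow was sequenced. Each of 5 groups held 3 libraries: untreated KD (libraries 7 to 9), untreated 36N (4 to 6), untreated 36S (1 to 3), 36N TMZ (4 to 6) and 36S TMZ (1 to 3), where TMZ stands for 50 µg/ml of temozolomide, a drug that methylates DNA, given to the cells 20 h before RNA isolation.

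Monocytes arise in bone marrow from granulocyte and monocyte progenitors under the control of the transcription factors PU.1, IRF8 and KLF4, leave the marrow through the chemokine receptor CCR2, and can become macrophages, cells that engulf dead cells and microbes. GFI1 is a transcriptional repressor that favours the granulocyte fate over the monocyte fate, and leukemias driven by MLL-AF9 are often monocytic. The members can be ordered by role: sensors of microbes, Fc receptors, scavenger and lectin receptors, complement chains, homing and adhesion molecules, lysosomal and secreted effectors, transcription factors, lipid and heme handling, and the Ms4a family.

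The values are normalized counts, which summed to between 11265945 and 24264818 per library and table. They are not divided by gene length, so they are compared between libraries and not between genes. Log2 fold changes are on the log2(normalized count + 1) scale, which understates the change of genes near 0, and each has its standard error (SE). Tests used limma over all genes of a comparison, with adjusted p-values under 0.05 called. The p-values measure the spread between 3 libraries per group: the number that follows MLL_AF9 in the titles is the same for all 36N and KD libraries and differs between the 36S libraries, its meaning is not given, and the labels do not say whether the mice of a group carried separate primary leukemias. Since the marrow holds many cell types, fewer cells of a type and less RNA per cell cannot be told apart, and the recipients' own cells may be part of the sample. Because the inserted alleles express human GFI1, the genotypes could not be checked from mouse Gfi1 here.

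The label of the list was checked against the values. Of the monocyte members, Ly6c2 had at least 21368, F13a1 at least 12213 and Lyz2 at least 9517 normalized counts in every untreated library. A further 10 members that mark macrophages or phagocyte subsets (Fcgr1, Mertk, C1qa, C1qb, C1qc, Mrc1, Cd36, Marco, Ms4a7 and Clec10a) had values under 150 in every untreated library. Their values ranged from 2.16 to 137.5 in KD, from 0.761 to 103 in 36N and from 1.11 to 87.2 in 36S. These 10 were picked by that limit, and other macrophage members were higher. In every untreated library Cd68 had at least 3451, Adgre1 at least 453, Apoe at least 391 and Hmox1 at least 253. The monocyte member Cd14 had only 27.9 to 232. The values therefore do not separate monocyte from macrophage members, and levels are not compared between genes.

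The untreated comparisons asked how the marrow of MLL-AF9 leukemia differs when GFI1 is low or is the 36N form. In KD against 36S, 22 of 36 members tested rose and 2 fell, beside 6.61% of 13109 genes that rose and 4.86% that fell. The members that rose covered homing, effector and sensor genes, led by Msr1 (6.84-fold), Vcam1 (4.04-fold), Lyz2 (3.79-fold) and Apoe (3.75-fold), and those that fell were Mgl2 (29.7-fold) and Tlr4 (1.82-fold). In 36N against 36S, 9 members rose (Cybb, Msr1, Lgals3, Lyz2, Cx3cr1, Klf4, Vcam1, Sirpa and Mpeg1) and 2 fell (Mgl2 and Fcgr4), beside 2.55% of 13137 genes that rose and 2.01% that fell. In KD against 36N, 7 members rose (Apoe, Cd14, Itgam, Ly6c2, Ccr2, Fcgr3 and Ctss) and 1 fell (Mgl2), beside 2.03% of 13118 genes that rose and 1.21% that fell. The median log2 fold change of the members was 0.89 for KD over 36S, 0.47 for 36N over 36S and 0.42 for KD over 36N, where the medians over all genes tested were -0.01 in each. Because the members were chosen with earlier results of these data known, their shares beside those of all genes are a description and no independent support. KD and 36N were set against the same 36S libraries, so their values are given side by side, and the KD to 36N comparison tests the difference between them.

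These counts depended on single libraries. For 36N over 36S the 11 calls became 5 without 36S library 2 or without 36N library 5, and 7 without 36N library 4 or without 36N library 6. The calls lost without 36S library 2 were those of Cx3cr1, Fcgr4, Lyz2, Mpeg1, Sirpa and Vcam1 (adjusted p from 0.071 to 0.14), and those lost without 36N library 5 were Cx3cr1, Klf4, Lyz2, Mpeg1, Sirpa and Vcam1 (adjusted p from 0.054 to 0.13). For KD over 36S the 24 calls became 15 without 36S library 2 (adjusted p of those lost from 0.053 to 0.13) or without KD library 9 (from 0.052 to 0.12). Both times Cx3cr1, F13a1, Fcgr3, Hmox1, Ly6c2, Maf, Ms4a6c and Tlr4 were among the 9 lost, with Ctsb or Itgam as the ninth. For KD over 36N the 8 calls became 3 without KD library 9, 36N library 4 or 36N library 5, which each lost Ccr2, Ctss, Fcgr3, Itgam and Ly6c2 (adjusted p from 0.077 to 0.2, from 0.078 to 0.13 and from 0.086 to 0.19), became 4 without KD library 7 (adjusted p of those lost from 0.058 to 0.14), and became 15 without KD library 8. Calls over all genes tested moved as well. For 36N over 36S they went from 599 to 188 without 36S library 2 and to 276 without 36N library 5. For KD over 36S they went from 1503 to 591 without 36S library 2 and to 611 without KD library 9. For KD over 36N they went from 425 to 116 without KD library 9 and to 1986 without KD library 8. Members called under every alternative run were Cybb, Lgals3, Mgl2 and Msr1 for 36N over 36S and Apoe, Cd14 and Mgl2 for KD over 36N. For KD over 36S they were Adgre1, Apoe, Ccr2, Cd14, Ctss, Cybb, Klf4, Lgals3, Lyz2, Mgl2, Mpeg1, Msr1, Tlr2 and Vcam1.

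**Figure D1:**
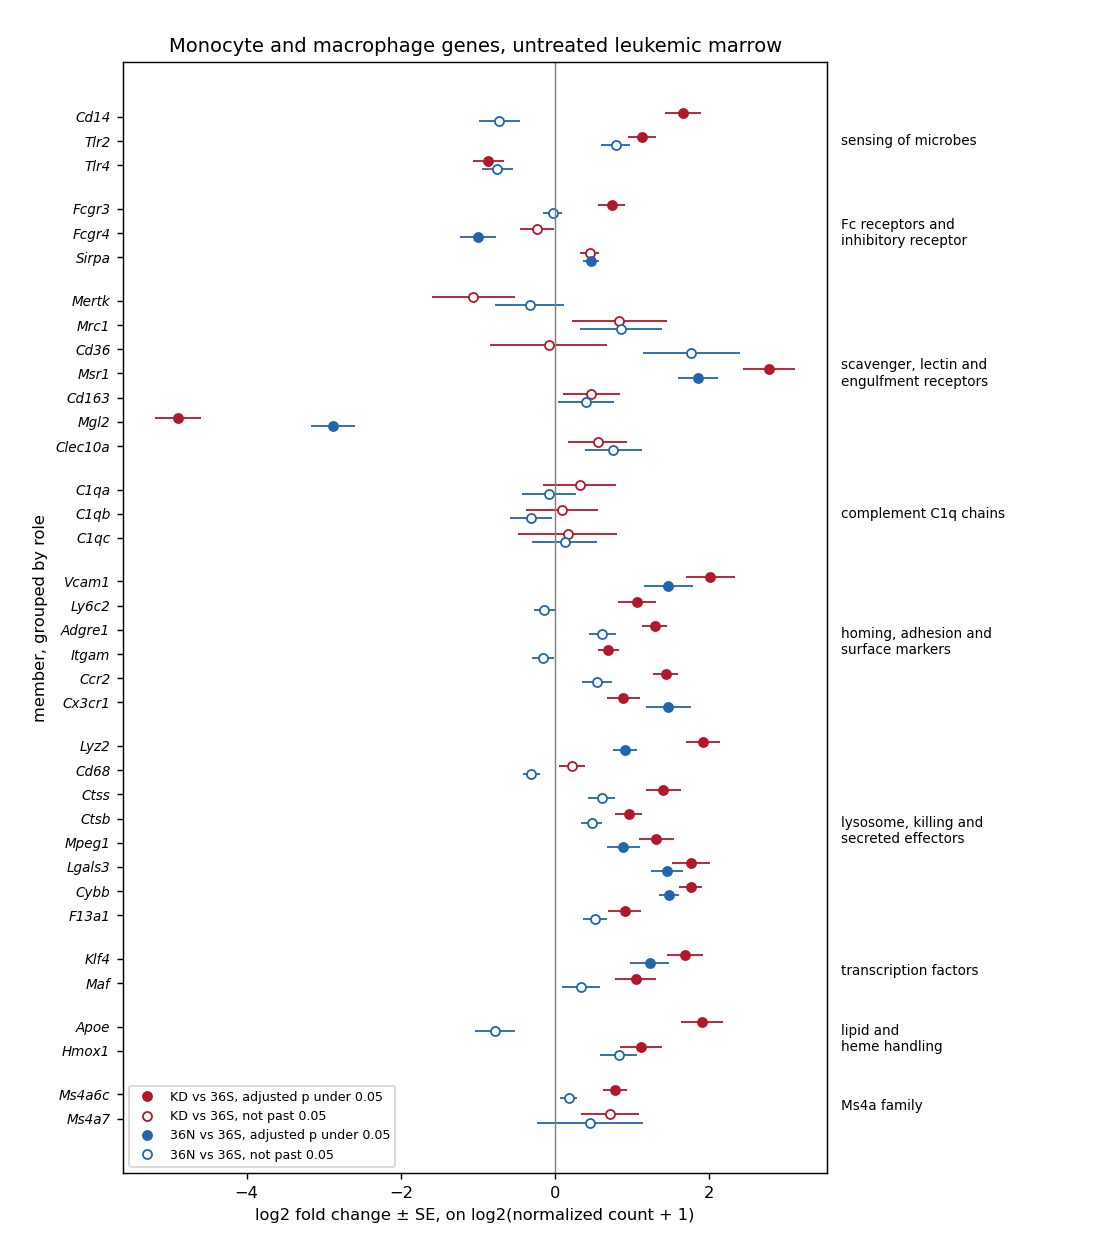
Log2 fold changes (x axis, on log2(normalized count + 1), ± SE) of the 36 members tested, grouped by role down the page, for KD over 36S (red) and 36N over 36S (blue), 3 libraries per group; filled points have an adjusted p under 0.05 and open points do not. KD points lie to the right of 0 for 31 of 36 members and 36N points for 24 of 36, and Mgl2 stands far to the left in both.

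The promoters of 4 members are shown because the data put these genes in different groups: Cybb rose in both KD and 36N, Ccr2 and Itgam rose in KD over both other genotypes, and Mgl2 fell in both. Each sequence is the window of RefSeq's GRCm38.p6 annotation from 250 bases before to 50 bases after the start of transcription, 5′ to 3′ on the gene's strand. The mm10 gene spans given below begin upstream of this start for Cybb, Ccr2 and Mgl2. Their windows therefore lie wholly or partly inside those spans, and distances hold for the RefSeq start alone. Capitals mark motifs that belong to the PU-box GAGGAA, bound by PU.1, the half-palindrome TTGCNNAA of the C/EBP factors and the core AAATCA of GFI1 sites, searched on both strands.
Cybb, chrX:9469275-9469574, minus strand: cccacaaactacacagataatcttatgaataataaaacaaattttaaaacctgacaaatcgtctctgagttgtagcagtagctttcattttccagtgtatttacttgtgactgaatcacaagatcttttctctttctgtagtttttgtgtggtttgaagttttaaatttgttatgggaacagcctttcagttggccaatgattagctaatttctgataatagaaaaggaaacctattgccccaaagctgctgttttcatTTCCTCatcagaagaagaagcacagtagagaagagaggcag
Ccr2, chr9:124101933-124102232, plus strand: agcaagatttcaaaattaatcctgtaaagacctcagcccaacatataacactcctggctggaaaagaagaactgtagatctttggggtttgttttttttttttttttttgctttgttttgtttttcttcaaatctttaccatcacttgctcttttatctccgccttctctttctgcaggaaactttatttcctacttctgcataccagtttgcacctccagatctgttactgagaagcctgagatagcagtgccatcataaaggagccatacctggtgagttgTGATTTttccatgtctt
Itgam, chr7:128062390-128062689, plus strand: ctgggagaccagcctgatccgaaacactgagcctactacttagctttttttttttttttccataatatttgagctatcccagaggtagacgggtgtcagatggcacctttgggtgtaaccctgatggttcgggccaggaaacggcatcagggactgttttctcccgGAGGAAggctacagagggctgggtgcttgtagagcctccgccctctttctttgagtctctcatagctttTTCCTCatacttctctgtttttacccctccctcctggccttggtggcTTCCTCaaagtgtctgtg
Mgl2, chr11:70130107-70130406, plus strand: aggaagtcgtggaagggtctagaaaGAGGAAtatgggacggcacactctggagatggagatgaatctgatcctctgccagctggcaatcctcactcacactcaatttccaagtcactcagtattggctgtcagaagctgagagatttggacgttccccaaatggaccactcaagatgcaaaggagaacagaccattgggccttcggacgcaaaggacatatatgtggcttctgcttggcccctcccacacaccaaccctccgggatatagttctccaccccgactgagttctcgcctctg
Cybb held 1 PU-box, 9 bases after the start on the opposite strand (printed as its reverse complement TTCCTC). Itgam held 3, at 84 and 15 bases before and 32 bases after the start, and Mgl2 held 1 at 225 bases before it. Ccr2 held 1 GFI1 core at 33 bases after the start, on the opposite strand (printed as TGATTT). No motifs overlapped in these windows. Of the 27 members with a promoter in the RefSeq table, 16 (59.3%) held a PU-box, 2 (7.41%) the C/EBP half-palindrome and 6 (22.2%) the GFI1 core. Among all 27025 genes of that table the shares were 31.3%, 12.2% and 15.9%. A match describes letters in a window and shows no binding.

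Among the effectors, 7 of 8 rose in KD and 4 of 8 in 36N, both over 36S. Cybb encodes the membrane subunit of the phagocyte oxidase that makes superoxide (chromosome X of mm10, 9435252 to 9487771). Its normalized counts were 7010.3, 9037 and 8526 in KD, against 5893, 6479 and 7889 in 36N and 2552, 2189 and 2499.9 in 36S. Both KD and 36N libraries lay entirely above the 36S libraries, while KD and 36N overlapped. The log2 fold change was 1.76 (SE 0.15, adjusted p = 1.7e-04) for KD over 36S, 1.48 (SE 0.13, adjusted p = 7.5e-04) for 36N over 36S and 0.28 (SE 0.17, adjusted p = 0.39) for KD over 36N. Lyz2, the lysozyme of macrophages and granulocytes (chromosome 10, 117277331 to 117282321), had 33691, 33735 and 54379 in KD, against 16074, 19509 and 24047 in 36N and 10509, 9517 and 11388 in 36S. The 3 genotypes did not overlap, with KD highest and 36S lowest. For Lyz2 the log2 fold change was 1.92 (SE 0.22, adjusted p = 8.3e-04) for KD over 36S and 0.91 (SE 0.16, adjusted p = 0.014) for 36N over 36S, and the KD to 36N difference of 1.01 (adjusted p = 0.053) missed the threshold. Its near copy Lyz1 stayed under the filter, with means of 9.68 in KD, 7.14 in 36N and 2.95 in 36S normalized counts, and how reads were divided between the copies is not known here.

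Lgals3 encodes galectin-3, a sugar-binding protein secreted by macrophages. Its normalized counts were 2889.6, 2007 and 3483 in KD, against 2188, 1862 and 2609.9 in 36N and 607, 787 and 1094 in 36S. Every KD and 36N library exceeded every 36S library, while KD and 36N overlapped. The log2 fold changes over 36S were 1.76 (SE 0.25, adjusted p = 0.0023) in KD and 1.45 (SE 0.21, adjusted p = 0.0061) in 36N. Mpeg1, which encodes the pore-forming protein perforin-2, had 13206, 14218 and 15603 in KD, against 10127, 10361 and 11481 in 36N and 4044, 6026 and 7830.2 in 36S. Here too the 3 genotypes did not overlap, and the log2 fold changes over 36S were 1.31 (adjusted p = 0.0063) in KD and 0.89 (adjusted p = 0.047) in 36N. The 36N call was lost in each of 4 fits, without 36S library 2 and without any one of the 36N libraries (adjusted p up to 0.14). Ctss, the lysosomal protease cathepsin S that trims the invariant chain of MHC class II, had 5882, 4018 and 6501 in KD, against 3052, 2915 and 3282 in 36N and 1548, 2048 and 2628 in 36S. Every KD library exceeded every 36N library and every 36N library every 36S library, and Ctss was called in KD over 36S at a log2 fold change of 1.40 (adjusted p = 0.0049) and in KD over 36N at 0.80 (adjusted p = 0.044), but not in 36N over 36S at 0.60 (adjusted p = 0.092).

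The other 3 effectors gave smaller differences. Ctsb, the lysosomal protease cathepsin B, and F13a1, the A subunit of coagulation factor XIII made by monocytes, rose in KD with log2 fold changes over 36S of 0.95 (adjusted p = 0.0077) and 0.90 (adjusted p = 0.025). In 36N their log2 fold changes over 36S were 0.47 (adjusted p = 0.081) and 0.52 (adjusted p = 0.096). Cd68, a lysosomal glycoprotein of macrophages, was not called, with 0.22 in KD and -0.31 in 36N.

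All 6 homing, adhesion and surface members rose in KD over 36S, and 2 of them, Cx3cr1 and Vcam1, rose in 36N over 36S. Ccr2 encodes the receptor through which classical monocytes leave the marrow (chromosome 9, 124101950 to 124113557). It had normalized counts of 3089, 3267 and 3774 in KD, against 1466, 1705 and 2385 in 36N and 1046, 1212 and 1516 in 36S. KD libraries stood above all others, while 36N and 36S overlapped through 36N library 4 and 36S library 3. Its log2 fold change was 1.44 (SE 0.16, adjusted p = 7.2e-04) for KD over 36S, 0.89 (SE 0.18, adjusted p = 0.028) for KD over 36N and 0.54 (SE 0.19, adjusted p = 0.16) for 36N over 36S. Cx3cr1 encodes the fractalkine receptor, which is highest on nonclassical monocytes. It had 789, 1069 and 890 in KD, against 1039.5, 1137 and 2134 in 36N and 349.7, 555 and 613 in 36S, with 36N library 6 the highest of the 9. KD and 36N libraries lay above 36S without overlap, at log2 fold changes of 0.89 (SE 0.22, adjusted p = 0.029) and 1.47 (SE 0.29, adjusted p = 0.024). KD and 36N overlapped in Cx3cr1, with a KD to 36N difference of -0.58 (adjusted p = 0.24).

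Itgam, which encodes CD11b, an integrin chain of monocytes and granulocytes (chromosome 7, 128062640 to 128118491), had 6201, 6385 and 6301 in KD, against 2949, 3498 and 4149 in 36N and 3568, 4424 and 3776 in 36S. The 3 KD libraries lay close together and above every 36N and 36S library, which overlapped. The gene Gm49368 overlaps Itgam on the same strand, and the mm10 span of Cx3cr1 overlaps 9 genes on either strand. How reads were divided between overlapping genes is not known here, and no source used here says whether they were counted by strand. The log2 fold change of Itgam was 0.69 (SE 0.14, adjusted p = 0.011) for KD over 36S, 0.85 (SE 0.15, adjusted p = 0.015) for KD over 36N and -0.16 (SE 0.14, adjusted p = 0.56) for 36N over 36S. Ly6c2, which encodes a Ly6C antigen of classical monocytes (chromosome 15, 75108158 to 75111970), had 61589.6, 40568 and 69333 in KD, against 26162, 25349 and 21368 in 36N and 29268, 24797 and 26214 in 36S. KD stood above both other groups, with KD library 8 the lowest of the 3, and 36N overlapped 36S. For Ly6c2 the log2 fold changes were 1.06 (SE 0.24, adjusted p = 0.022) for KD over 36S, 1.20 (SE 0.24, adjusted p = 0.023) for KD over 36N and -0.14 (SE 0.14, adjusted p = 0.58) for 36N over 36S. Its near copy Ly6c1 had log2 fold changes over 36S of 0.33 in KD and 0.20 in 36N, neither called.

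Adgre1 encodes F4/80, the common surface marker of mouse macrophages. Its normalized counts were 1250.4, 1098 and 1500 in KD, against 680.1, 715 and 1026 in 36N and 453, 584 and 529 in 36S. The genotypes did not overlap, and the log2 fold changes over 36S were 1.29 (SE 0.16, adjusted p = 0.0012) in KD and 0.61 (SE 0.18, adjusted p = 0.091) in 36N. Vcam1, an adhesion molecule for integrin-bearing leukocytes that marrow macrophages also carry, had 672, 402 and 451 in KD, against 436, 348 and 257 in 36N and 201, 104 and 86.7 in 36S. KD and 36N overlapped with each other and lay above 36S, at log2 fold changes of 2.01 (adjusted p = 0.0039) and 1.47 (adjusted p = 0.034).

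**Figure D2:**
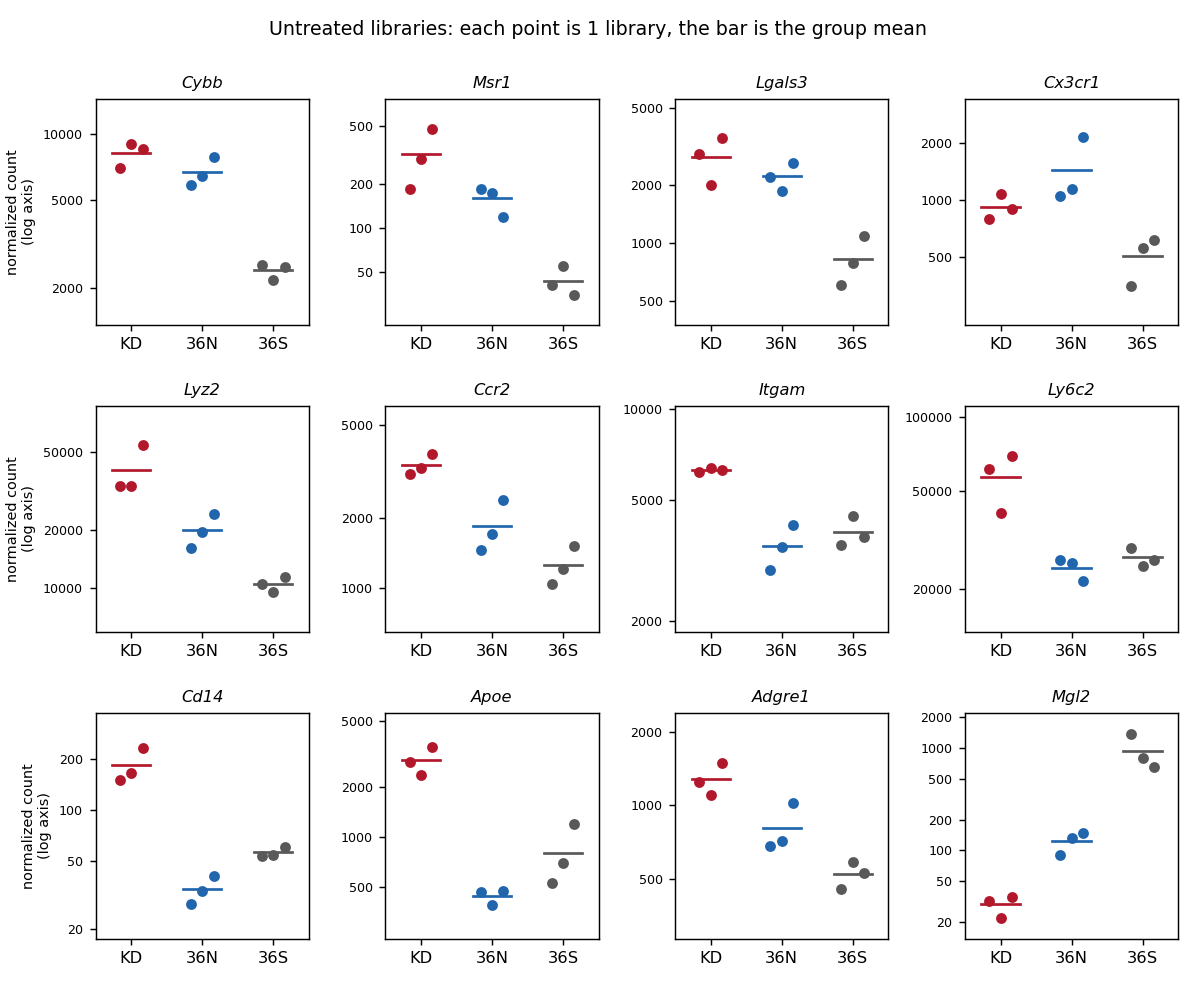
Normalized counts (y axis, log scale) of 12 members in the untreated libraries, from left to right KD, 36N and 36S; each point is 1 of 3 libraries per group and each bar is the group mean. Cybb, Msr1, Lgals3 and Cx3cr1 are higher in KD and 36N than in 36S, Itgam, Ly6c2, Cd14 and Apoe are highest in KD alone, and Mgl2 is lowest in KD and highest in 36S.

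The log2 fold changes between KD and 36N were largest, among the members tested, for the lipid carrier Apoe and the sensor Cd14. Cd14 encodes the co-receptor for bacterial lipopolysaccharide. Its normalized counts were 150.4, 165 and 232 in KD, against 27.9, 33.3 and 40.8 in 36N and 53.7, 54.3 and 60.5 in 36S. All KD libraries lay above all 36S libraries and all 36N libraries below them. The log2 fold change of Cd14 was 1.66 (SE 0.23, adjusted p = 0.0022) for KD over 36S, 2.38 (SE 0.27, adjusted p = 0.001) for KD over 36N and -0.72 (SE 0.27, adjusted p = 0.17) for 36N over 36S, where the last missed the threshold. Apoe encodes apolipoprotein E, a lipid carrier secreted by macrophages (chromosome 7, 19696109 to 19699188). It had 2808, 2358 and 3478 in KD, against 466, 391 and 473 in 36N and 528, 693 and 1191 in 36S. The order of the genotypes was again KD, 36S, 36N, without overlap. For Apoe the log2 fold changes were 1.91 (SE 0.27, adjusted p = 0.0024) for KD over 36S, 2.68 (SE 0.17, adjusted p = 2.0e-05) for KD over 36N and -0.78 (SE 0.26, adjusted p = 0.13) for 36N over 36S.

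Tlr2, the receptor for bacterial lipoproteins, had 453, 411 and 485 in KD, against 299, 365 and 411 in 36N and 163, 227 and 234 in 36S. KD and 36N libraries lay above 36S, and the lowest KD library almost met the highest 36N library. The log2 fold changes over 36S were 1.12 (adjusted p = 0.0046) in KD and 0.79 (adjusted p = 0.052) in 36N. Tlr4, the lipopolysaccharide receptor with which CD14 acts, went the other way. It fell in KD, with a log2 fold change over 36S of -0.87 (SE 0.20, adjusted p = 0.025), and stood at -0.75 (adjusted p = 0.072) in 36N. Hmox1, the heme oxygenase of macrophages that clear red cells, rose in KD at 1.11 (adjusted p = 0.028) and stood at 0.82 (adjusted p = 0.088) in 36N, both over 36S on the log2 scale.

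Of 7 scavenger, lectin and engulfment receptors tested, 1 rose and 1 fell in both KD and 36N. Msr1 encodes the class A scavenger receptor for modified lipoproteins. Its normalized counts were 184, 299.9 and 483 in KD, against 186, 175 and 119 in 36N and 41.0, 54.7 and 35.0 in 36S. Both genotypes lay above 36S and overlapped with each other, with log2 fold changes over 36S of 2.77 (SE 0.34, adjusted p = 0.0012) in KD and 1.85 (SE 0.27, adjusted p = 0.0061) in 36N. Mgl2 encodes a galactose-binding lectin of macrophages and dendritic cells (chromosome 11, 70130329 to 70137550). It had 32.3, 22.0 and 34.7 in KD, against 89.6, 131 and 148 in 36N and 1375, 805 and 645 in 36S, so that the 3 genotypes did not overlap and KD was lowest. The log2 fold change of Mgl2 was -4.89 (SE 0.30, adjusted p = 3.4e-05) for KD over 36S, -2.88 (SE 0.28, adjusted p = 0.0013) for 36N over 36S and -2.01 (SE 0.30, adjusted p = 0.0066) for KD over 36N. Its close relative on the same chromosome, Clec10a, was not called, at 0.55 in KD and 0.75 in 36N over 36S, and reads of the similar pair may be divided between them. Cd36 (a receptor for fatty acids), Mrc1 (the mannose receptor), Mertk (a receptor for dying cells) and Cd163 (the hemoglobin scavenger receptor) were called in none of the 3 comparisons, with log2 fold changes over 36S between -1.06 and 0.83 in KD and between -0.33 and 1.77 in 36N.

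The Fc receptors, which bind antibody, differed among themselves. Fcgr3, a low-affinity receptor for IgG, had 3736, 2729.9 and 3999 in KD, against 2101, 1973 and 2003 in 36N and 2436, 1940.4 and 1878 in 36S. KD exceeded both other groups, which overlapped, and the log2 fold change was 0.73 (SE 0.18, adjusted p = 0.027) for KD over 36S and 0.77 (SE 0.16, adjusted p = 0.03) for KD over 36N. The inhibitory receptor gene Fcgr2b, similar to Fcgr3 in its extracellular part, was not called, at 0.05 for KD over 36S and 0.28 for KD over 36N. Fcgr4, the receptor of nonclassical monocytes, had 178, 131 and 235 in KD, against 90.4, 147 and 84.3 in 36N and 229, 195 and 202 in 36S. In 36N all 3 libraries lay below 36S, with a log2 fold change of -0.99 (SE 0.23, adjusted p = 0.046), while KD overlapped 36S at -0.23 (adjusted p = 0.56). Sirpa, the receptor for the CD47 signal that restrains engulfment, had 4739, 5225 and 4789 in KD, against 5018, 4615 and 5313 in 36N and 3336, 3744 and 3737 in 36S. Both KD and 36N lay above 36S, where 36N was called at a log2 fold change of 0.47 (adjusted p = 0.041) and KD was not at 0.45 (adjusted p = 0.051). Among the 6 fits that left out 1 library, the 36N call of Sirpa was lost in all 6 and that of Fcgr4 in all but that without 36N library 5, with adjusted p up to 0.14.

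Both transcription factors on the list rose in KD. Klf4, required for monocyte differentiation, had 2261, 2332 and 2460.3 in KD, against 1442, 1688 and 2078 in 36N and 472, 956 and 870.4 in 36S. KD and 36N stood above 36S, and KD above 36N, without overlap, with log2 fold changes over 36S of 1.68 (SE 0.24, adjusted p = 0.0023) in KD and 1.23 (SE 0.25, adjusted p = 0.028) in 36N. Maf, a factor of tissue macrophages, stood at 1.05 (adjusted p = 0.034) in KD and 0.34 (adjusted p = 0.47) in 36N. Irf8, which directs progenitors to monocytes and is not among the 38, had 6605, 6669 and 6645 in KD, against 5004, 5109 and 4915 in 36N and 2538, 3334 and 3022 in 36S. The 3 genotypes did not overlap in Irf8, with log2 fold changes of 1.17 (SE 0.14, adjusted p = 0.001) for KD over 36S, 0.77 (SE 0.12, adjusted p = 0.0084) for 36N over 36S and 0.41 (adjusted p = 0.12) for KD over 36N. Csf1r, the receptor for the growth factor of macrophages, had 6025, 5356 and 6977 in KD, against 3905, 3766 and 5244 in 36N and 2444, 2851 and 4228 in 36S. KD lay above both other groups while 36N overlapped 36S, and the log2 fold changes over 36S were 0.98 (SE 0.21, adjusted p = 0.016) in KD and 0.46 (adjusted p = 0.25) in 36N.

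Irf8 and Csf1r come from a list of 51 other monocyte and macrophage genes, of which 50 were analysed. That list too was chosen with earlier results of these data known. In KD over 36S 19 of 48 tested were called, all higher (median log2 fold change 0.66), and in 36N over 36S 7 of 47, all higher (median 0.26). In KD over 36N 5 of 49 were called, all higher (median 0.42). After Irf8 the lowest adjusted p-values for KD over 36S belonged to Aif1 (1.76), Emilin2 (2.07), Nlrp3 (2.02), Gpnmb (2.19) and Ccr1 (1.08), given as log2 fold changes, of which Nlrp3 encodes the inflammasome sensor. For 36N over 36S they belonged to the integrin gene Itgal (0.70), Irf8, Nlrp3 (1.49), Ccr1 (0.62), Aif1 (1.05) and Axl (1.43), a receptor for dying cells. For KD over 36N the 5 that rose were Emilin2 (1.16), Itgb2 (0.78), Fn1 (1.32), Grn (0.73) and Gpnmb (1.18). Itgb2 encodes the partner chain of CD11b, and Fn1 encodes fibronectin.

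The remaining members showed little difference between the untreated genotypes. The 3 chains of complement C1q, which tags dying cells, were called in none of the comparisons, with log2 fold changes between 0.09 and 0.32 in KD and between -0.32 and 0.12 in 36N over 36S. In the Ms4a family of membrane proteins, Ms4a6c rose in KD at 0.78 (adjusted p = 0.012), and stood at 0.18 (adjusted p = 0.4) in 36N. Its near relative Ms4a6d, with which reads may be shared, fell in 36N at -1.26 (adjusted p = 0.049), and was higher in KD than in 36N at 1.28 (adjusted p = 0.049), while Ms4a7 was not called. All 6 members of the classical monocyte subset (Ly6c2, Ccr2, F13a1, Ms4a6c, Lyz2 and Cd14) rose in KD over 36S, beside 1 of 6 in 36N over 36S (Lyz2). Of 11 members used as markers of resident macrophages, 5 rose in KD (Adgre1, Vcam1, Maf, Apoe and Hmox1) and 1 in 36N (Vcam1).

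Some markers of other cells differed between the same groups. The summed normalized counts of 15 neutrophil and granulocyte precursor genes lay between 41403 and 57614 in KD and between 52106 and 58729 in 36N, against 69942 to 210216 in 36S, where 36S library 1 was highest, and none of the 15 was at 0 in a group. Of these, 5 fell and 1 rose in KD over 36S, and 2 fell and 1 rose in 36N over 36S, where Elane, the neutrophil elastase gene, fell in both. The 5 eosinophil genes summed to 1055 to 2983 in KD and to 176 to 344 in 36N, against 243 to 450 in 36S, and 3 of 5 rose in KD (Prg2, Prg3 and Siglecf). The 12 T and NK cell genes summed to 369 to 1537 in KD and to 213 to 462 in 36N, against 146 to 284 in 36S, with 5 of 11 tested higher in KD. Against 36S, Cd3g, Gzma and Gzmb passed the filter through KD alone and could only be called higher there. The 8 erythroid genes summed to 47.7 to 203 in KD and 60.0 to 589 in 36N, against 52.2 to 73.2 in 36S. The highest sums were those of KD library 8 and 36N library 6. Only 2 erythroid genes were tested against 36S, and neither was called in KD or 36N. The 8 dendritic cell genes summed to 650 to 871 in KD and 1306 to 2361 in 36N, against 300.3 to 909 in 36S. The 9 B and plasma cell genes summed to 6108 to 6707 in KD and 6437 to 11094 in 36N, against 7647 to 11918 in 36S, with Vpreb3 at 0 in every KD library. The 8 mast cell and basophil genes analysed summed to 2903 to 3441 in KD and 525 to 1460 in 36N, against 1719 to 2805 in 36S. The part of these cells in the members' differences was not tested.

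Temozolomide in 36N cells was compared within the table that holds both 36N groups. Of 38 members, 18 rose and 11 fell with TMZ, where 36.3% of 14390 genes rose and 33.5% fell. A share of 47.4% higher and 28.9% lower among the members was thus near that of all genes. Counts of called genes in smaller groups below are to be read beside these shares of all genes. The median log2 fold change was 0.85 for the members and 0.06 for all genes tested. The members that rose were led, by log2 fold change, by the receptor genes Fcgr1, Marco, Cd36, Cd14 and Mrc1. Of these, Fcgr1 passed the filter only through the TMZ libraries, so in this test it could only be called higher. Those that fell were led by Cd163, F13a1, Klf4, Ms4a6c and Ly6c2, of which F13a1, Ms4a6c and Ly6c2 are markers of classical monocytes and Cd163 is a macrophage receptor. Cd163 passed the filter through the untreated libraries. The labels do not say whether the untreated cells were cultured for the same 20 h, so the drug, the culture and the preparation of the libraries cannot be told apart.

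The scavenger, lectin and engulfment receptors had 6 of 8 members higher with TMZ and 1 lower. Marco, a scavenger receptor for bacteria, had normalized counts of 769, 749 and 2089 in 36N TMZ libraries, against 11.8, 11.0 and 19.4 in 36N libraries. The groups stood far apart, with a log2 fold change of 6.18 (SE 0.44, adjusted p = 1.7e-05). Cd36 had 656, 638 and 1208 in 36N TMZ libraries, against 42.3, 42.7 and 73.7 in 36N libraries, and Mrc1 had 1420, 346 and 826 in 36N TMZ libraries, against 53.3, 43.4 and 52.8 in 36N libraries. Neither overlapped, at log2 fold changes of 3.94 (SE 0.33, adjusted p = 3.7e-05) and 3.87 (SE 0.47, adjusted p = 2.2e-04). Clec10a had 1237, 1279 and 486 in 36N TMZ libraries, against 59.0, 83.8 and 79.0 in 36N libraries, at 3.63 (SE 0.38, adjusted p = 1.1e-04), also without overlap. Cd163 had 8.9, 3.07 and 18.7 in 36N TMZ libraries, against 283, 327 and 347 in 36N libraries, with every TMZ library under every untreated one, and a log2 fold change of -5.11 (SE 0.54, adjusted p = 1.1e-04). Mertk and Msr1 rose at 2.71 (adjusted p = 0.002) and 1.29 (adjusted p = 0.01), and Mgl2 stood at -0.59 (adjusted p = 0.34) with overlapping libraries.

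Fcgr1, the high-affinity receptor for IgG, had 557, 241 and 540.5 in 36N TMZ libraries, against 3.14, 0.972 and 5.35 in 36N libraries. The untreated values lay under the filter of 10 and the TMZ values far above it, at a log2 fold change of 6.81 (SE 0.53, adjusted p = 2.5e-05). Fcgr1 thus passed the filter only through the TMZ libraries and could only be called higher, so its p-value is no independent support. Cd14 had 1040.2, 587 and 702 in 36N TMZ libraries, against 41.9, 50.0 and 61.6 in 36N libraries, a log2 fold change of 3.87 (SE 0.27, adjusted p = 1.5e-05) with no overlap. Fcgr3 rose at 1.53 (adjusted p = 0.0019), as did Fcgr2b at 2.09 (adjusted p = 2.1e-04), and Tlr4 at 0.92 (adjusted p = 0.017). Tlr2 stood at -0.36 (adjusted p = 0.46) and Fcgr4 at 0.79 (adjusted p = 0.11), both with overlapping libraries. Sirpa fell at -0.47 (adjusted p = 0.019). The Sirpa call was lost without 36N library 4 (adjusted p = 0.055) or 36N library 6 (adjusted p = 0.056), and the Tlr4 call without 36N library 4 (adjusted p = 0.054).

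Homing and surface members split. Ly6c2 had 5876, 2509.6 and 2957 in 36N TMZ libraries, against 35837, 34718 and 29420.5 in 36N libraries. This was a drop without overlap, at a log2 fold change of -3.24 (SE 0.30, adjusted p = 5.6e-05). Adgre1 had 3262, 3191 and 3136 in 36N TMZ libraries, against 1117, 1174 and 1694 in 36N libraries, all above the untreated libraries, at 1.29 (SE 0.17, adjusted p = 3.0e-04). Cx3cr1 had 273, 306 and 1123 in 36N TMZ libraries, against 1674, 1831 and 3454 in 36N libraries, all below the untreated libraries, at -2.27 (SE 0.54, adjusted p = 0.0066). Vcam1 fell as well, at -2.58 (adjusted p = 0.0011). Ccr2 had 4965, 3348 and 5996 in 36N TMZ libraries, against 2813, 3273 and 4601 in 36N libraries, and Itgam had 9515, 5510.1 and 8507 in 36N TMZ libraries, against 5763, 6834 and 8148 in 36N libraries. Both overlapped between the groups and were not called, at 0.41 (adjusted p = 0.18) for Ccr2 and 0.16 (adjusted p = 0.55) for Itgam.

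Among effectors 2 rose and 4 fell with TMZ. F13a1 had 3604, 579 and 1535 in 36N TMZ libraries, against 36501, 38504 and 40035 in 36N libraries, and Mpeg1 had 5147, 2458 and 4918 in 36N TMZ libraries, against 17100.4, 17492 and 19485 in 36N libraries. Both fell without overlap, at log2 fold changes of -4.70 (SE 0.56, adjusted p = 2.1e-04) and -2.18 (SE 0.27, adjusted p = 2.6e-04). Ctsb, which overlaps Fdft1 in the genome, had 27444, 17820 and 33175 in 36N TMZ libraries, against 8747, 8175 and 9489 in 36N libraries, all above the untreated libraries, at 1.53 (SE 0.23, adjusted p = 6.1e-04). Lyz2 had 24712, 8417 and 34595 in 36N TMZ libraries, against 25130, 30494 and 37786 in 36N libraries, with TMZ library 5 far below the others, and was not called at -0.67 (SE 0.48, adjusted p = 0.25). Cybb and Cd68 fell at -1.95 (adjusted p = 0.0028) and -1.64 (adjusted p = 0.0062), Lgals3 rose at 1.76 (adjusted p = 0.0024), and Ctss stood at -0.61 (adjusted p = 0.2).

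Apoe had 11266, 2477 and 10642 in 36N TMZ libraries, against 548, 459.7 and 559 in 36N libraries, a log2 fold change of 3.68 (SE 0.53, adjusted p = 5.4e-04) without overlap, although TMZ library 5 was lower than the other 2. The same library was the lowest of the 3 for C1qb, which rose at 3.02 (adjusted p = 0.0056), for C1qc, which rose at 2.81 (adjusted p = 0.0085), and for C1qa, which overlapped at 1.65 (adjusted p = 0.068). Ms4a6c had 1158, 506 and 825 in 36N TMZ libraries, against 7642, 7577 and 8119 in 36N libraries, a drop without overlap at -3.31 (SE 0.27, adjusted p = 3.1e-05), while Ms4a7 rose at 3.20 (adjusted p = 0.0058). Klf4 fell at -3.81 (adjusted p = 0.0013), Maf rose at 2.09 (adjusted p = 0.0088) and Hmox1 stood at 0.29 (adjusted p = 0.54). Irf8 had 1059, 236 and 490.1 in 36N TMZ libraries, against 7013, 7160.4 and 6924 in 36N libraries, and Csf1r had 4557, 1505 and 3355 in 36N TMZ libraries, against 7441, 7176 and 10043 in 36N libraries. Both fell without overlap, at log2 fold changes of -3.82 (SE 0.46, adjusted p = 2.2e-04) and -1.51 (SE 0.38, adjusted p = 0.008). Of the 6 classical monocyte members 1 rose (Cd14) and 3 fell (Ly6c2, F13a1 and Ms4a6c), and of the 11 resident macrophage members 7 rose and 2 fell (Cd163 and Vcam1). Among all genes 36.3% rose and 33.5% fell, and a shift between these small subsets was not tested.

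Of 49 other monocyte and macrophage genes tested, 26 rose and 13 fell with TMZ (median log2 fold change 0.94). Over all genes the shares were 36.3% higher and 33.5% lower. The lowest adjusted p-values belonged to Itgb2 (2.33), the lysosomal protease gene Ctsd (3.78), Zeb2 (-2.67), the cholesterol exporter gene Abca1 (3.32), Spi1 (-1.69), which encodes PU.1, and Ly86 (-7.78), given as log2 fold changes. Among relatives of the members, Ctsl rose at 3.60, and Ly6c1, Ms4a6b and Tlr1 fell at -3.01, -1.71 and -1.56, while Lyz1 and Ms4a6d were not called.

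**Figure D3:**
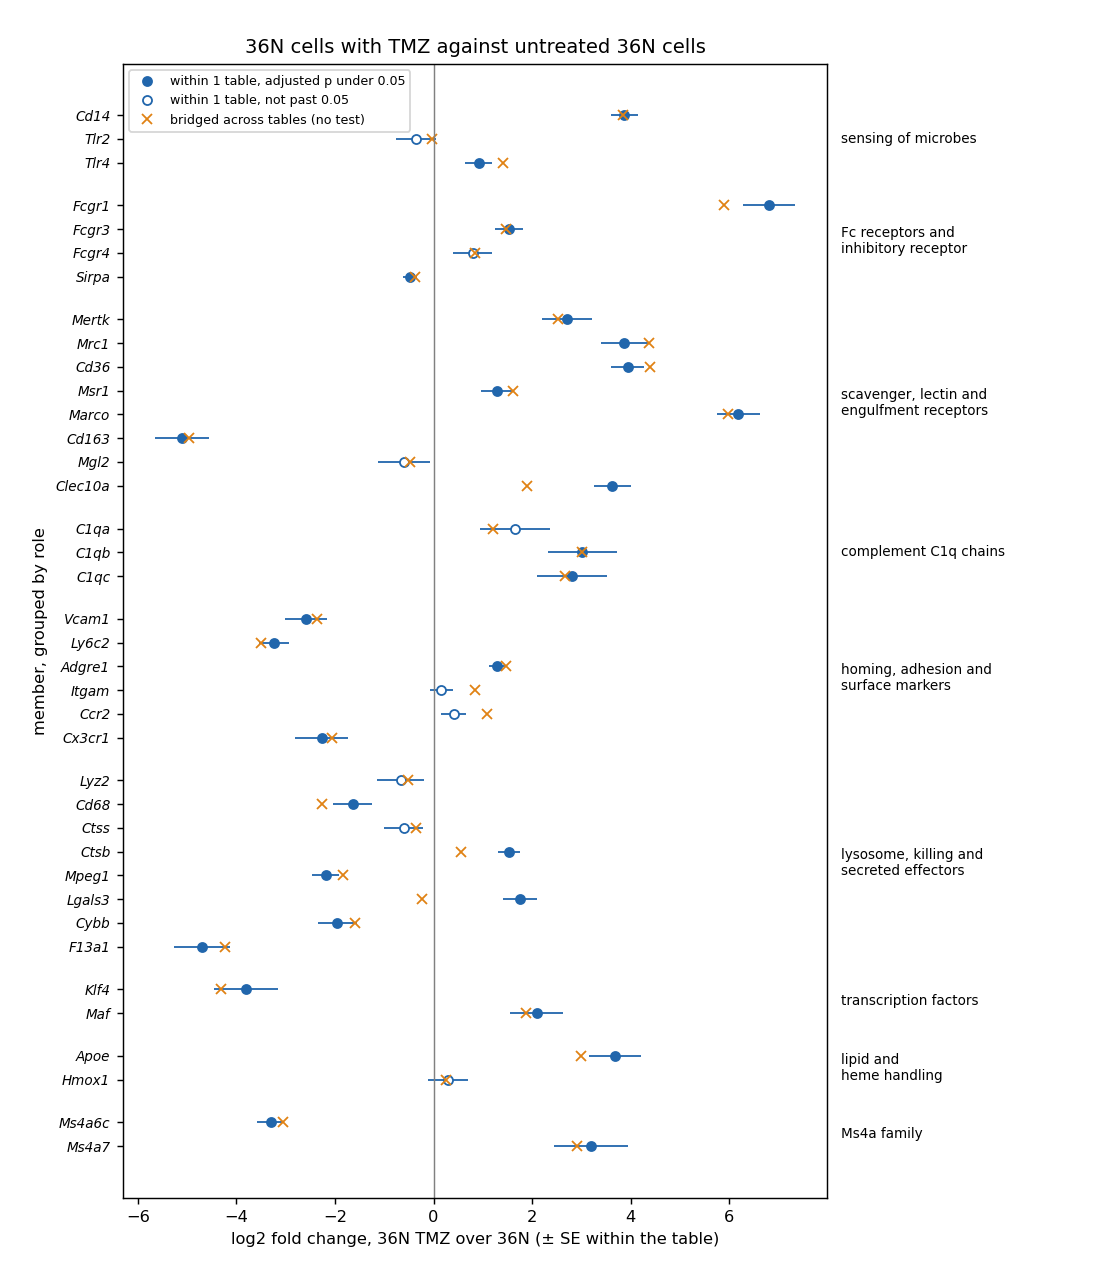
Log2 fold changes of all 38 members, 36N TMZ over 36N, grouped by role down the page; circles with ± SE are from the table that holds both groups (filled where the adjusted p is under 0.05), and crosses are the same libraries taken from the other 2 tables, with no test. Circles and crosses lie on the same side of 0 for all called members except Lgals3, at 1.76 and -0.24.

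The same libraries did not have the same values in different tables. For untreated 36N, the ratio between the table with TMZ and the untreated table varied from gene to gene, from -0.71 to 0.38 (5th to 95th percentile over 10091 genes, log2, centred on its median), and for 36N TMZ from -0.73 to 0.36 over 10788 genes. The cause was not tested. When the 36N TMZ libraries from the TMZ table were set against the 36N libraries of the untreated table, 17 of 18 members that rose and 11 of 11 that fell kept their sign, with a median over the 38 of 0.84. Lgals3, at 1.76 within the table, stood at -0.24 across tables, and its libraries overlapped. The value of Clec10a changed to 1.89, that of Ctsb to 0.56 with overlapping libraries, that of Fcgr1 to 5.89, that of Apoe to 2.98 and that of Cd68 to -2.26. Itgam at 0.83 and Ccr2 at 1.08 were then above the untreated libraries without overlap. This comparison was added after the values had been seen and has no test.

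Markers of other cells and of the leukemia changed between these groups too. The summed normalized counts of 13 mast cell and basophil genes lay between 124142 and 327193 in 36N TMZ, against 641 to 1826 in 36N, where Mcpt4, Tpsb2, Tpsab1 and Fcer1a were at 0 in every untreated library. All 12 of these genes tested rose, as did all 6 megakaryocyte and platelet genes, whose sums were 29137 to 57278 in 36N TMZ against 44.5 to 94.8 in 36N. Genes that passed the filter through 1 group alone could only be called higher there, as with Mcpt4, Tpsb2 and Fcer1a through 36N TMZ. Cd3e, Cd3g, Cd2, Cd8a, Cd4, Klrb1c, Cd79a, Igkc, Jchain, Ccr9 and Cd209a passed it through untreated 36N alone. The same held for Cxcl12 and Lepr, and all of these could only be called lower with TMZ. The dendritic cell genes summed to 67.5 to 94.3 in 36N TMZ against 1974 to 3497 in 36N, with Cd209a at 0 with TMZ, and the 8 B and plasma cell genes to 233 to 530 against 8786 to 15143. The neutrophil list summed to 70476 to 98640 in 36N TMZ against 69120 to 78529 in 36N, and the eosinophil list to 1096 to 4599 against 281 to 549. Of the 15 neutrophil genes 4 rose and 3 fell with TMZ, so that opposite changes are joined in their sum. Of 11 T and NK cell genes tested 7 fell and 3 rose with TMZ (median log2 fold change -3.60), with Cd3e and Gzma at 0 in every TMZ library. Their sum of 6604 to 9609 in 36N TMZ against 324 to 678 in 36N was with TMZ mostly that of Gzmb, a granzyme gene, at 5912, 7845 and 8248 in 36N TMZ libraries, against 8.27, 18.2 and 22.7 in 36N libraries, in normalized counts. Of the 6 genes of the MLL-AF9 leukemia program 5 fell (Hoxa9, Hoxa10, Meis1, Myb and Cd34) and 1 rose (Mecom), with sums of 8526 to 11248 in 36N TMZ against 15557 to 23037 in 36N. Of 8 stroma and endothelium genes 4 fell and 1 rose, with sums of 4286 to 6033 in 36N TMZ against 4466 to 4639 in 36N. Of 7 erythroid genes tested 3 rose, with sums of 535 to 836 in 36N TMZ against 87.0 to 912 in 36N. What part these genes' cells had in the members' values was not tested.

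With TMZ in both genotypes, no member was called between 36N and 36S. In 36N TMZ over 36S TMZ limma called 0 of 38 members and 0 of 14246 genes (0% higher and 0% lower) at an adjusted p under 0.05, with 1 member and 191 genes at an unadjusted p under 0.05. Of the log2 fold changes, 33 of 38 were above 0, with a median of 0.32 and a range from -0.65 to 0.94, where the median over all genes was 0.01. The member with an unadjusted p under 0.05 was Cd36, with 1218, 1174 and 2197 in 36N TMZ and 576, 1000.1 and 1020.1 in 36S TMZ, whose libraries did not overlap, at a log2 fold change of 0.81 (SE 0.32, adjusted p = 0.9998).

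The defining monocyte and macrophage genes overlapped between the TMZ groups. Adgre1 had 5209.6, 5050.1 and 4909 in 36N TMZ and 4765, 5560.4 and 2102 in 36S TMZ normalized counts. Cd14 had 1569.8, 877 and 1037 in 36N TMZ and 1485, 1077 and 732 in 36S TMZ, and Ly6c2 had 8264, 3497 and 4074 in 36N TMZ and 10396, 4213 and 3493 in 36S TMZ. The 36N to 36S differences with TMZ were 0.40 (SE 0.34, adjusted p = 0.9998), 0.10 (SE 0.31, adjusted p = 0.9998) and -0.13 (SE 0.47, adjusted p = 0.9998) for these genes on the log2 scale. Ccr2 had 9462, 6323 and 11197 in 36N TMZ and 8727, 7828 and 5813 in 36S TMZ, Cx3cr1 had 450.1, 501 and 1816 in 36N TMZ and 441, 676 and 745 in 36S TMZ, and Itgam had 17913, 10279.8 and 15694 in 36N TMZ and 21222, 9470.2 and 10089 in 36S TMZ. Their log2 fold changes were 0.25, 0.29 and 0.17. Lyz2 had 40265, 13591 and 55235 in 36N TMZ and 30606, 15354 and 29889.6 in 36S TMZ. Csf1r had 8638, 2827 and 6233 in 36N TMZ and 7789, 2717 and 4761 in 36S TMZ, and Irf8 had 1504, 332 and 682 in 36N TMZ and 1238, 292 and 427 in 36S TMZ. None of these was called, at 0.37 for Lyz2, 0.20 for Csf1r and 0.38 for Irf8.

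Libraries of the TMZ groups also deviated from their group means in like ways. Deviations of the libraries from their group means over 14246 genes correlated between 36N TMZ 4 and 36S TMZ 1 (r = 0.392), between 36N TMZ 5 and 36S TMZ 2 (r = 0.447) and between 36N TMZ 6 and 36S TMZ 3 (r = 0.348), while the other pairs had r from -0.236 to -0.124. These points are genes, which are not independent, and the libraries of a group share their mean, so the values are a description. Of the 38 members, 22 had their 3 libraries in the same order in both groups. The share of all genes in the same order was not counted, so the 22 are not read as a trait of the members. Apoe followed this order in part, with 13642, 2973 and 12628 in 36N TMZ and 7540.5, 2135 and 10867 in 36S TMZ: 36N TMZ 5 and 36S TMZ 2 were the lowest of their groups. The labels do not tie these libraries together, so the main test was not paired. Taken in those pairs, which were chosen after the values had been seen, 13 members were higher and 1 lower in 36N TMZ than in 36S TMZ in all 3 pairs, where 15.7% of 14246 genes were higher and 10.9% lower. Those higher included Mertk, Cd36, Klf4, Ctss, Maf, Hmox1, Apoe and F13a1, and the one lower was Mgl2. With these pairs as a block limma again called 0 of 38 members and 0 genes, with 11 members and 781 genes at an unadjusted p under 0.05. The lowest adjusted p among the members was 0.89, that of Mertk, at a log2 fold change of 0.79 (SE 0.18) in this fit.

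**Figure D4:**
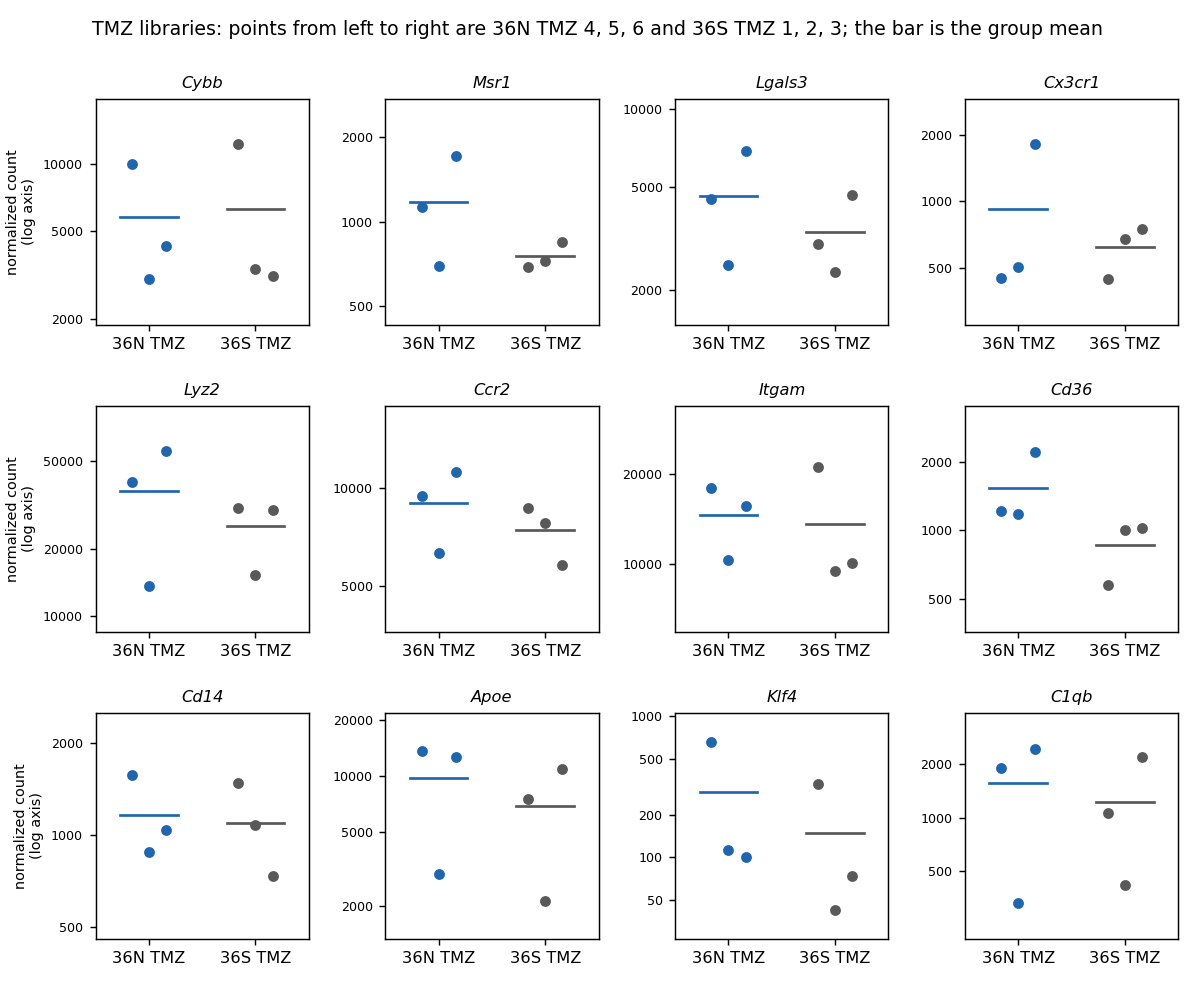
Normalized counts (y axis, log scale) of 12 members in the TMZ libraries, 36N TMZ on the left and 36S TMZ on the right; each point is 1 of 3 libraries per group, drawn from left to right as 4, 5, 6 and 1, 2, 3, and each bar is the group mean. The groups overlap in all panels but that of Cd36, and the libraries of a group spread widely, as for C1qb and Klf4.

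Whether the 36N to 36S difference itself differed with TMZ was tested as an interaction over 12324 genes, each difference taken within 1 table. No member of the 36 tested was called by limma, with 5 at an unadjusted p under 0.05 (Msr1, Fcgr4, Mgl2, Tlr4 and Sirpa), beside 0.235% of all genes called higher and 0.0974% called lower. The lowest adjusted p was that of Msr1, whose 36N to 36S log2 fold change of 1.85 without TMZ stood at 0.55 with it, an interaction of -1.30 (SE 0.43, adjusted p = 0.41). Mgl2 stood at -2.88 without and -0.65 with TMZ, an interaction of 2.24 (SE 0.89, adjusted p = 0.59), and Cybb at 1.48 and 0.00, an interaction of -1.47 (SE 0.68, adjusted p = 0.72). The SEs of the interactions, between 0.24 for Sirpa and 1.05 for Klf4, limit which differences between the differences could be called with 3 libraries per group.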

How the data were processed

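RNA was sequenced from poly(A)-selected libraries of 15 samples in 5 groups of 3, grouped by the genotype and treatment labels. The deposited tables hold a normalized count per gene and library, a signal that the authors had scaled before deposit, per the file headers; the submitters' processing notes name Salmon, DESeq2 and mm10 without versions or roles, and an annotation is not given in the sources used here. Column totals ranged from 11265945 to 24264818, but whole reads could not be recovered, so depth is unknown and no counting interval is given; genes near 0 are the least precise. Genes were tested where 3 or more libraries of a comparison reached 10, on log2(value + 1) with limma 3.58.1 (R 4.3.3, trend, two-sided), with Benjamini-Hochberg adjustment over all genes tested and a threshold of 0.05. The KD to 36N comparison joined both untreated tables, whose 36S columns were identical over 18075 genes. Tables were otherwise normalized separately, and tests stayed within a table; the genotype by TMZ interaction compared 2 within-table differences. The fit was tested on simulated data. The members and lists were chosen with earlier results of these data known. Per-library values are given for up to 14 called members per comparison in order of adjusted p and for 9 defining markers, and up to 6 other monocyte genes per comparison are named. The 4 promoters, Cd36 and Apoe between the TMZ groups, and the 3 members named for the interaction were chosen after their values were seen. Titles of 36N libraries with the same number, with and without TMZ, differ only in the TMZ ending, and they do not say that a mouse was shared. Deviations of these libraries correlated weakly (r = 0.019, 0.0371 and 0.0858 over 14390 genes). That cannot show whether the libraries are paired, because most genes differed between 36N with and without TMZ and each group held 3 libraries. The main fit did not take the numbers as pairs. Alternatives were pseudocounts of 0.5 and 5, no filter or one of 50, other scalings, limma without trend, with robust fitting or library weights, a fit on all untreated groups, the replicate block, and each library left out; a block of the TMZ libraries by order and values taken across tables were added after seeing the data.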

Additional observations from a re-analysis of the deposited data

Results flagged for a closer look

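The following 8 members differed between KD and 36N, both of which were set against the same 36S libraries, by the test of that difference with limma. Apoe was higher in KD by a log2 fold change of 2.68, and Cd14 by 2.38, where every KD library lay above and every 36N library below all 36S libraries. Ly6c2 was higher in KD by 1.20, Ccr2 by 0.89, Itgam by 0.85, Ctss by 0.80 and Fcgr3 by 0.77. Mgl2 was lower in KD, at -2.01. The calls of Apoe, Cd14 and Mgl2 held in every fit run, and the other 5 were lost without KD library 9, 36N library 4 or 36N library 5.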

How the results depend on the processing

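The number of members called depended on how the spread between libraries was estimated and on single libraries. For 36N over 36S, where 11 were called, limma without trend called 4 and library weights called 25, and leaving out 1 library gave 5 to 11. Over all genes, the 599 calls became 305, 3304 and 188 to 508 in these fits. For KD over 36N, where 8 were called, no trend gave 3, library weights 22 and leaving out 1 library 3 to 15. Over all genes, the 425 calls became 203, 3721 and 116 to 1986. For KD over 36S, where 24 were called, leaving out 1 library gave 15 to 23, and for 36N TMZ over 36N, where 29 were called, 27 to 31. Over all genes, the 1503 and 10037 calls became 591 to 2051 and 8192 to 8901. With the library number as a replicate block, a fit of 36N with and without TMZ called 30 members (19 higher and 11 lower). It called 9985 of all genes, although the numbers were not taken as pairs. The count for 36N TMZ over 36S TMZ and for the interaction was 0 under every alternative run. Among 1170 recomputed values of called members, 115 lost the call, 5 moved and 1 turned sign. That was Lgals3, 36N TMZ over 36N, at -0.24 when the libraries were taken across tables; the cause was not tested. Scaling to equal totals moved the median of all genes to -0.13 for KD over 36S and over 36N and to -0.09 for 36N TMZ over 36N; relative to it the members' medians were 0.90, 0.43 and 0.79.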
